A study of Homo sapiens with 5 samples.

Results

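Intronic TEAD4 peaks close to transcription start sites (TSSs) made up 3888 of the 21113 TEAD4 peaks of LX-2 cells, or 18.4%. Each is placed by its summit, the position that the list gives for the peak, and some intervals are listed with several summits. The summit lies within the body of a protein-coding gene but in no exon of such a gene. It is more than 1 kb and at most 10 kb from the closest TSS annotated for a coding or an lncRNA gene. Genes, exons and TSSs came from GENCODE release 44 on hg38, and the start of every annotated transcript counted as a TSS. LX-2 is an established human hepatic stellate cell line, used by the study as a model of myofibroblastic hepatic stellate cells (MF-HSCs). The chromatin came from cells given DMSO alone as vehicle, and TEAD4 chromatin immunoprecipitation (ChIP) was made in 3 replicates, with 1 input library for replicates 1 and 2 and 1 for replicate 3. The authors left replicate 2 out, because only replicates 1 and 3 agreed well enough in their analysis of reproducibility. The peaks are a single list for replicates 1 and 3 together, so that no value per replicate or depth was available here. All samples are of this cell line without the OGT inhibitor used elsewhere in the study. No expression was measured in them, so the cell type could not be checked against its markers.

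TEAD4 belongs to the TEAD family of transcription factors, which bind DNA but need coactivators such as YAP1 and TAZ (encoded by WWTR1) to switch genes on. The Hippo kinase cascade keeps these coactivators out of the nucleus, and they are known to enter it in stellate cells that turn into matrix-secreting myofibroblasts. TEAD factors mostly bind enhancers, often beside AP-1 (FOS and JUN) sites, and introns hold many enhancers as well as the promoters of shorter transcripts of a gene.

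The sequences of the strongest peaks show the motifs on which the results turn. All are hg38, plus strand, centred on the summit, and capitals mark the TEAD motif ACATTCC and the AP-1 motif TGACTCA, each on either strand. The span is 60 bases to either side of the summit, or 100 bases where a motif counted for the peak lies farther out. The 4 peaks with the highest signal value that hold both motifs are shown first, since peaks with both motifs had the highest median signal value.
ADRA1D, chr20:4225828-4226028: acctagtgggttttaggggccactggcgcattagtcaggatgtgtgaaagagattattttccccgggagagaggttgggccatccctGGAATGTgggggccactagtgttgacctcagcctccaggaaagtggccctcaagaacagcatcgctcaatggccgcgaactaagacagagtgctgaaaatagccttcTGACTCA
FHIP1A, chr4:151484843-151484963: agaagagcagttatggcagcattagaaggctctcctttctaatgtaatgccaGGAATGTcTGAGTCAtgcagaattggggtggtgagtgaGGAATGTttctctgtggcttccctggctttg
PTGIS, chr20:49562439-49562559: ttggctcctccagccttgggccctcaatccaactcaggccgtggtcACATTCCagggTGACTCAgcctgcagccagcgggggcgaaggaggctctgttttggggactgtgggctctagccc
TBC1D4, chr13:75359363-75359563: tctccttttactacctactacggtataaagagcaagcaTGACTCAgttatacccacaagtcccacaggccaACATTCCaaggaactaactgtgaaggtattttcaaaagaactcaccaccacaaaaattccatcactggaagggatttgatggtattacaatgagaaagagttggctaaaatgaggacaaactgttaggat
In the peak of FHIP1A the AP-1 motif lies 1 base after a TEAD motif, and a further TEAD motif lies within the same 121 bases. The next 2 show several TEAD motifs without an AP-1 motif, 3 of them in the peak of C18orf63.
C18orf63, chr18:74316888-74317088: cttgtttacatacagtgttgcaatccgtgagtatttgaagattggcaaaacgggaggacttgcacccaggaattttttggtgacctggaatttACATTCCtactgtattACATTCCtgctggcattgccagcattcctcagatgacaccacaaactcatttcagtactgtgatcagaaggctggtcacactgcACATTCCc
TBC1D2, chr9:98223372-98223492: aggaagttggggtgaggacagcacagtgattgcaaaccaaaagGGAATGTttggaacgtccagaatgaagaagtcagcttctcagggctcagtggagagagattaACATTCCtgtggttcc
The last 2 are the strongest peaks in which neither motif was found, and belong to the largest group of these intronic peaks. Their signal values, 640 and 619, are far above the median of 61.6 in that group. Near matches were not counted. SDC4 holds tgactcg and TRPM1 holds ggaatgc, which differ from TGACTCA and GGAATGT in the last base.
SDC4, chr20:45337890-45338010: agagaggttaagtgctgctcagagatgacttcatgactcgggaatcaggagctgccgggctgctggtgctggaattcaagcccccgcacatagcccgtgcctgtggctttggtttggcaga
TRPM1, chr15:31024552-31024672: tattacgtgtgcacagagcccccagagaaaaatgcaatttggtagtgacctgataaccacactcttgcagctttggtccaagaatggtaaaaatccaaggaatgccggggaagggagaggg

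Most of these peaks were close to a TSS inside their host gene and far from its annotated 5′ end. Of the 3888 summits, 3129 (80.5%, Wilson 95% interval 79.2 to 81.7) had a TSS of a host gene as their nearest TSS, 622 (16.0%) one of an lncRNA gene and 137 (3.52%) one of another coding gene. Yet 1028 summits (26.4%) lay within 10 kb of the 5′ end of the host gene as a whole. A further 1186 lay 10 to 50 kb from it, 640 lay 50 to 100 kb away, and 1034 (26.6%) lay over 100 kb away. These distant summits were close to starts of alternative transcripts, to lncRNA genes in the intron, or to another coding gene. The summit was downstream of the nearest TSS for 2263 peaks (58.2%, 56.6 to 59.7) and upstream for 1625. Upstream summits included 1207 for which the nearest TSS was one of the host gene itself, so that the summit lay in an intron of a longer transcript. With a single TSS per gene, at its 5′ end, the rule found 2138 peaks. The rule itself requires a summit inside a coding gene, and the eligible intron was not divided by owner or side of the TSS. No preference of TEAD4 can be read from these shares.

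**Figure D1:**
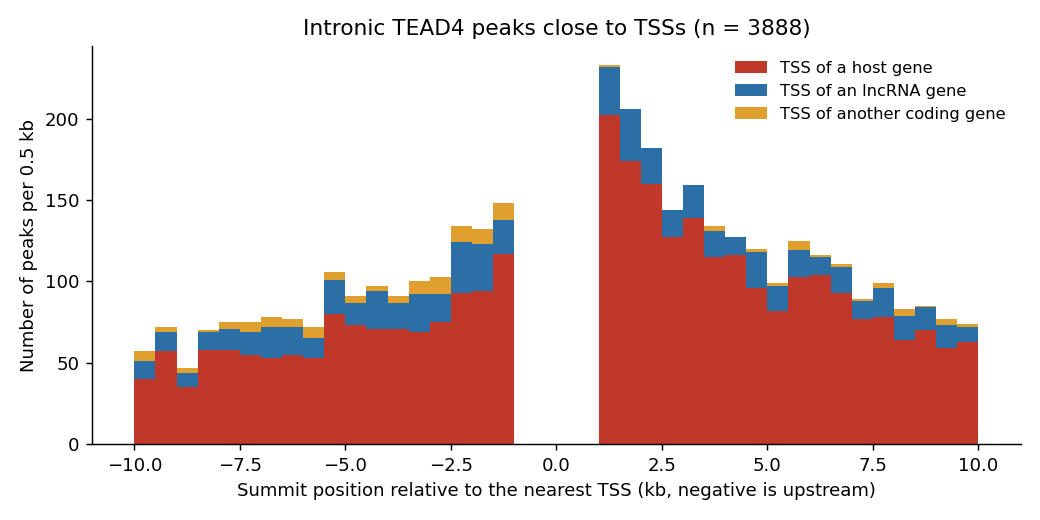
Number of peaks (vertical axis, per 0.5 kb) by the position of the summit relative to the nearest TSS in kb (horizontal axis, negative values upstream), for the 3888 peaks, with colours for the gene that owns the TSS. Counts fall away from the TSS on both sides, the gap within 1 kb is set by the rule, and host genes own 3129 of the nearest TSSs.

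The fall of the counts with distance followed the amount of sequence in which such a peak could lie. Introns of coding genes at 1 to 10 kb from a TSS spanned 440 Mb, and held 8.85 peaks per Mb (exact Poisson 95% interval 8.57 to 9.13). Between 1 and 2.5 kb there were 9.35 peaks per Mb (8.79 to 9.93), between 2.5 and 5 kb 8.36 (7.89 to 8.85), between 5 and 7.5 kb 8.98 (8.42 to 9.57) and between 7.5 and 10 kb 8.82 (8.19 to 9.47). Over all introns farther from a TSS than 10 kb it was 7.20 per Mb (7.0 to 7.41), against 7.89 (7.57 to 8.21) outside coding genes at the same 1 to 10 kb, and 20.4 (19.7 to 21.1) within 1 kb of a TSS. These intervals cover counting error only, and peaks lie in clusters, so that they are too narrow. Among chromosomes 1 to 22 and X the density ran from 4.20 per Mb on X (3.18 to 5.45) to 13.4 on 20 (11.2 to 15.9), and the copy number of the chromosomes in LX-2 was not analysed here.

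By the Ensembl canonical transcript of the host gene, 1222 summits (31.4%) lay in the first intron, 617 in the second and 1570 (40.4%) in a later one. The other 479 (12.3%) lay outside the span of that transcript, in an intron of another transcript of the gene. The length of eligible sequence by intron number was not computed, so these shares show no preference either. Median GC content within 100 bp of the summit was 44.3%, between the 42.8% of deep intronic peaks and the 54.7% of peaks within 1 kb of a TSS. Of the 3888 peaks, 1977 (50.8%, 49.3 to 52.4) had another summit of the list within 10 kb, beside 47.6% of deep intronic peaks. The share was 49.9% in peaks outside coding genes at 1 to 10 kb and 42.8% in those within 1 kb of a TSS. For 395 (10.2%, 9.25 to 11.1) the nearest TSS carried a TEAD4 summit of its own within 1 kb. This held for 8.58% of deep intronic peaks and 10.8% of peaks outside coding genes at 1 to 10 kb. Neither share was tested against the other classes.

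Intronic peaks close to TSSs did not differ detectably in strength from deep intronic ones, and were slightly weaker than peaks outside genes. The signal value is the peak caller's strength of each peak, for which the sources used here give no unit. It ran from 6.58 to 774 over the 3888 peaks, with a median of 66.6 and quartiles of 45.6 and 110. The medians were 68.4 in the 4824 deep intronic peaks (over 10 kb from a TSS), 73.1 in the 2389 peaks outside coding genes at 1 to 10 kb, and 62.7 in the 3446 peaks within 1 kb of a TSS. In a linear model of the log2 signal value on peak class, fitted to all peaks (n = 21113) with errors clustered by 1 Mb block, the mean was 0.985 times that of deep intronic peaks (95% interval 0.956 to 1.01, adjusted p = 0.318). It was 0.922 times that of peaks outside coding genes at the same distance (0.889 to 0.956, adjusted p = 3.24e-05, n = 21113 in the fit), and 1.04 times that of peaks within 1 kb of a TSS (1.01 to 1.08, adjusted p = 0.0132). The last difference was lost among peaks with the highest score for reproducibility between the replicates (1.02 times). The spread within each class was far wider than these differences, and p-values over peaks of one list carry no error between replicates.

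Within the set, distance to the TSS did not go with a detectable change in signal value, at 0.989 times per doubling of the distance (0.964 to 1.02, adjusted p = 0.414, n = 3888). Peaks of the first intron had 0.950 times the signal value of those in later introns (0.903 to 0.999), which missed the threshold (adjusted p = 0.0775, n = 3409). It passed with 1 peak kept for each group of overlapping peaks (0.945 times) and with a single TSS per gene (0.911 times), and was 0.992 times, without passing, among peaks with the highest score for reproducibility. At the lower limit of the rule, the 203 intronic peaks at 1.0 to 1.25 kb had a median signal value of 66.1, and the 228 at 0.75 to 1.0 kb one of 68.8. At the upper limit, the 280 at 9 to 10 kb had a median of 64.0 and the 235 at 10 to 11 kb one of 69.8.

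The TEAD motif was sharply centred on these summits. It lay within 100 bp of 914 summits (23.5%, 22.2 to 24.9), beside 23.0% of all 21113 peaks. In windows of equal width 2000 bp to either side it was in 2.69% (2.35 to 3.07), an odds ratio of 11.1 (9.53 to 13.0, adjusted p = 1.28e-202 in a logistic model clustered by peak, n = 3888). There were 856 matches within 50 bp of a summit and 47 between 400 and 450 bp away, in the same summed length. A match is a description of the sequence and not an occupied site, and its absence says only that these letters are not in the window. The same letters read backwards, CCTTACA, were in 2.29% of summits and 2.02% of flanks, and the difference missed the threshold (odds ratio 1.14, 0.876 to 1.48).

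The AP-1 motif was in 1027 summits (26.4%, 25.1 to 27.8), beside 25.4% of all peaks and 3.51% of the flanks (odds ratio 9.87, 8.59 to 11.3, adjusted p = 7.74e-229, n = 3888). Its matches lay farther from the summit than those of TEAD. Among matches within 100 bp, the median distance was 36 bp for AP-1 and 18 bp for TEAD. RUNX factors bind TGTGGTT, which was in 9.77% of summits and 3.73% of flanks (odds ratio 2.80, 2.39 to 3.27, adjusted p = 1.49e-37, n = 3888). Smaller excesses over the flanks passed for the NFI site TTGGCA (1.73 times the odds), the CArG box of serum response factor (1.70), the GC box GGGCGGG (1.43) and the E-box CAGATG (1.25). The AP-1 letters read backwards, ACTCAGT, had 1.58 times the odds (1.30 to 1.92), but every AP-1 site TGACTCA that is followed by GT holds them, so that they are no independent control. The ETS motif CCGGAAG and the CTCF core AGGGGGC did not pass.

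In motif content these intronic peaks differed most from peaks within 1 kb of a TSS. Neither the TEAD nor the AP-1 motif differed detectably from deep intronic peaks, with odds ratios of 1.05 (0.947 to 1.16) and 0.934 (0.850 to 1.03). The same held against peaks outside coding genes at 1 to 10 kb, with 0.914 (0.810 to 1.03) for TEAD and 1.05 (0.935 to 1.18) for AP-1. Against peaks within 1 kb of a TSS, the AP-1 motif was more frequent (26.4% and 15.9%, odds ratio 1.90, 1.69 to 2.14, adjusted p = 2.92e-25, n = 21113), as were the RUNX motif (odds ratio 1.83), the E-box (1.44) and the NFI site (1.43). With GC content in the model the odds ratio of the AP-1 motif was 1.79. The odds ratio of ACTCAGT, which an AP-1 site followed by GT holds, was 1.87 (1.45 to 2.42) in this comparison. The TEAD share was 23.5% against 21.8%, an odds ratio of 1.10 (0.987 to 1.23) that did not pass, and 1.19 with GC content in the model, which passed. Other choices of processing gave values from 0.975 to 1.25.

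Sequences typical of promoters were less frequent than in peaks within 1 kb of a TSS. The GC box, a site of SP family factors, was in 123 of the 3888 summits (3.16%), in 20.4% of those within 1 kb of a TSS (odds ratio 0.128, 0.105 to 0.156, adjusted p = 2.99e-89, n = 21113) and in 1.20% of deep intronic ones (odds ratio 2.68, 1.91 to 3.77, adjusted p = 6.76e-08). Of the 11 sequences searched, it was the one that passed against deep intronic peaks. With GC content as a covariate, added after seeing the data, these odds ratios were 0.612 and 1.68, and both passed. The ETS motif was in 0.977% against 7.05% within 1 kb (odds ratio 0.130, 0.0923 to 0.183), or 0.251 with that covariate. The CTCF core was in 2.52% against 3.77% of peaks outside coding genes at 1 to 10 kb (odds ratio 0.661, adjusted p = 0.0173, n = 21113) and 8.42% within 1 kb (0.281). With GC content in the model these odds ratios were 0.739 and 0.882, and neither passed. The first was 0.687, and just missed the threshold, with 1 peak kept for each group of overlapping peaks.

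Along the 1 to 10 kb from the TSS the AP-1 share went from 23.4% at 1.0 to 2.5 kb to 27.2%, 27.5% and 28.0% in the farther ranges, and the TEAD share from 26.1% to 23.2%, 22.7% and 21.4%. Per doubling of the distance the odds ratio was 1.09 for AP-1 (1.01 to 1.18, adjusted p = 0.0678, n = 3888) and 0.936 for TEAD (0.862 to 1.02, adjusted p = 0.140). Neither passed as fitted. The AP-1 trend passed with GC content in the model (1.10), and both passed with a single TSS per gene (1.19 and 0.861).

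Signal value went with motif content. The 189 peaks with both motifs (4.86%) had a median signal value of 84.8 and an upper quartile of 164. The 725 with the TEAD motif only had a median of 78.8, the 838 with the AP-1 motif only one of 65.9, and the 2136 with neither (54.9%) one of 61.6. The geometric mean signal value was 1.52 times as high with both as with neither (1.38 to 1.68, adjusted p = 1.02e-15, n = 3888), in the same kind of model. It was 1.29 times as high with 1 peak kept for each group of overlapping peaks. The quartile ranges of the 4 groups overlapped. In the fifth of peaks with the highest signal values 33.8% held the TEAD motif and in the fifth with the lowest 13.9%, while the AP-1 share was 19.8% in the fifth with the lowest values and 27.8% to 28.3% in the others. By the number of TEAD motifs the median was 63.0 with none, 79.5 with 1, 85.6 in 58 peaks with 2 and 126 in 9 peaks with 3 or more. In the peaks with both motifs the centres of the closest TEAD and AP-1 match lay a median of 41 bp apart, and within 20 bp in 55 of 189 (29.1%), as in the printed peaks of FHIP1A and PTGIS.

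**Figure D2:**
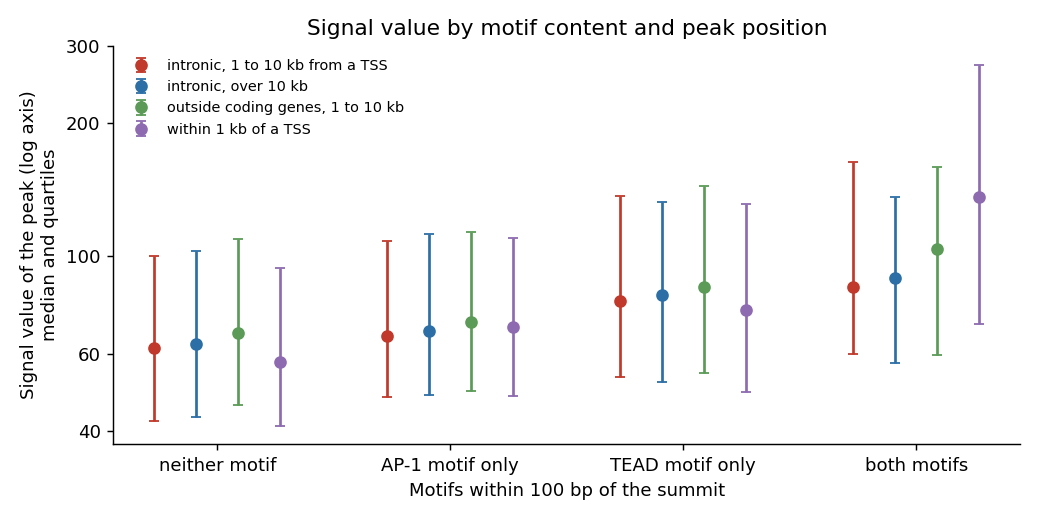
Median signal value with quartiles (vertical axis, log scale) by motif content within 100 bp of the summit (horizontal axis), for the intronic peaks close to TSSs and 3 other classes. In the intronic peaks the median goes from 61.6 with neither motif to 84.8 with both, with wide overlap of the quartile ranges.

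The 10 strongest peaks ranked among the first 65 of the whole list and had signal values from 594 to 774. Highest was a peak in intron 4 of AXL, a receptor tyrosine kinase and known YAP-TEAD target, at chr19:41223378-41223876 (774, AP-1 motif only), 1.58 kb upstream of the TSS of an lncRNA gene. A peak in the only intron of ADRA1D, the alpha-1D adrenergic receptor, at chr20:4225716-4226231 reached 690 with both motifs. SDC4, a heparan sulfate proteoglycan of focal adhesions, held one of 640 in its first intron (chr20:45337680-45338138, neither motif). VAC14, a scaffold of the kinase complex that makes PI(3,5)P2, held one of 630 in intron 17 of 18 (chr16:70694028-70694471, AP-1 motif only). The peak in the first intron of PCNX4 reached 627 (chr14:60094271-60094702, TEAD motif only). Those in the cation channel gene TRPM1 (619, chr15:31024303-31024886) and in the first intron of CTNND1, which encodes the cadherin partner p120-catenin (619, chr11:57778470-57778914), held neither motif. MME, which encodes the cell-surface peptidase neprilysin, held one of 606 (chr3:155070826-155071312, neither motif), outside its canonical transcript. C18orf63 held the peak with 3 TEAD motifs (600.0, chr18:74316700-74317235), and SUSD1 one of 594 (chr9:112041670-112042324, neither motif). In all, 3 of these 10 held the TEAD motif, 3 the AP-1 motif and 5 neither, and for 4 the nearest TSS was that of an lncRNA gene. Over all 3888 peaks the shares were 23.5%, 26.4%, 54.9% and 16.0% in the same order.

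The 3888 peaks lay in 2471 of 20033 protein-coding genes (12.3%). Of these, 1544 held 1, 554 held 2 and 373 held 3 or more, and 219 peaks lay in more than 1 gene. Hosting rose with the length of intron at 1 to 10 kb from a TSS that a gene offers. It was 6.96% in genes with 5 to 20 kb of such sequence, 18.8% with 20 to 50 kb, 34.5% with 50 to 100 kb and 51.2% above that. Some peaks overlap and share reads, and the 3888 formed 3580 groups without overlap.

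DOCK2, an activator of the GTPase Rac best known from blood cells, held the most, 12 in 9 groups without overlap, along 181 kb of eligible intron (chr5:169697874-169979223). Their signal values had a lowest value of 14.5, a median of 61.2 and a highest of 482, and 3 of these peaks also lie within INSYN2B. CRIM1, which encodes a transmembrane protein that binds BMPs, held 11 in 10 groups along 67.9 kb (chr2:36358427-36507722), from 8.18 over a median of 101 to 453. The CRIM1 peak of 8.18 shares its interval with one of 439. SMAD3, the transcription factor through which TGF-beta receptors signal, held 11 in 8 groups along 91.6 kb (chr15:67076206-67179152), from 10.9 over a median of 113 to 288. In SMAD3, 9 of the 11 summits lay in the first intron. The recombination gene RAD51B held 10 along 255 kb, from 31.6 to 216, and LIMA1, which encodes an actin-bundling LIM protein, held 10 in 8 groups along 66.5 kb, with a lowest value of 17.5. SHROOM3, an organiser of apical actomyosin, held 9 in 8 groups along 119 kb, from 9.78 to 335. Relative to the eligible length, CRIM1, LIMA1 and SMAD3 held the densest sets of these 6, and in each of the 6 genes 2 or 3 peaks held the TEAD motif. The TEAD share over all 3888 peaks was 23.5%, and motif content by gene was not tested.

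Of the genes of the Hippo pathway, of actomyosin and of cell adhesion, shares between 17 of 34 and 17 of 30 hosted such a peak, beside 12.3% of all coding genes. Hepatocyte genes (3.85%, 0.682 to 18.9, and 2.63 per Mb, 0.0667 to 14.7) and immune cell genes (5.0%, 0.888 to 23.6, and 7.43 per Mb, 0.900 to 26.8) lay below it. Endothelial genes lay above it, with 3 hosts of 15 (7.05% to 45.2%) and 13.4 per Mb (5.37 to 27.5). The intervals of these lists include 12.3% of genes and the 8.85 per Mb of all eligible introns. Differences between lists were not tested. Of 23 known YAP-TEAD target genes, 12 hosted at least 1 (52.2%, 33.0 to 70.8), with 38.8 peaks per Mb of eligible intron (26.9 to 54.3), beside 8.85 over all such introns. Their 34 peaks, 11 of them in CRIM1, had a median signal value of 102, and 9 held the TEAD motif. Over all 3888 peaks the TEAD share was 23.5%, and the motif content of the lists was not tested. The targets CCN1 and CCN2 had no eligible intron, and ANKRD1, MYOF and DOCK5 were among those that had some but hosted no peak. After AXL, the strongest lay in AMOTL2, which encodes a junctional angiomotin protein that binds YAP1 (529, intron 5, chr3:134364046-134364507), in intron 7 of CRIM1 (453) and in CCDC80, which encodes a secreted matrix protein (338, chr3:112647103-112647482). Of 34 Hippo pathway genes, 17 hosted one (interval of the share 34.1% to 65.9%; 30.6 per Mb, 22.6 to 40.6), and 17 of their 48 peaks held the TEAD motif. Hosts included the coactivator genes YAP1 and WWTR1, the kinase genes LATS2, STK3 and STK4, and the cofactor genes VGLL3 and VGLL4. Genes without one included TEAD1, TEAD2, TEAD3, TEAD4, LATS1, NF2, MOB1A, MOB1B, FAT1 and WWC2. The strongest after AMOTL2 were in VGLL4, whose product competes with YAP1 for TEAD factors (370, chr3:11600407-11600818), in FRMD6, an upstream activator of the cascade (270, chr14:51604148-51604495), and in the protocadherin gene FAT4 (240, chr4:125323760-125324076). The lists of targets and pathway genes share 4 genes. The strongest peaks with a TEAD motif in these lists had the following summits.
CRIM1, chr2:36486744-36486864: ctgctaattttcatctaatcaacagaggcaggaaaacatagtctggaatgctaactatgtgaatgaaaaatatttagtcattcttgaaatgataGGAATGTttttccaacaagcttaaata
FRMD6, chr14:51604279-51604399: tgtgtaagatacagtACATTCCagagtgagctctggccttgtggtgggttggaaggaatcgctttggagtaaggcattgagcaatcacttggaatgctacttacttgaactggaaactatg

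Of 39 actin and contractile genes, 21 hosted one (53.8%, 38.6 to 68.4, and 30.4 per Mb, 23.0 to 39.4). Of their 57 peaks, 13 held the TEAD motif and 15 the AP-1 motif, beside 23.5% and 26.4% of all 3888 peaks. The strongest lay in first introns, of the alpha-actinin genes ACTN4 (359, chr19:38659568-38659923) and ACTN1 (350, chr14:68941885-68942229), of CNN2, which encodes calponin 2 (313, chr19:1028483-1028826), and of MYH9, the heavy chain of non-muscle myosin IIA (215, chr22:36368599-36369000). ACTA2, the gene of alpha smooth muscle actin and the usual marker of myofibroblasts, was also a host. Its only peak had a signal value of 33.8, below the lower quartile of 45.6 of all these peaks. The smooth muscle genes ACTG2, CNN1, MYL9 and TPM2 hosted none, and TAGLN had no eligible intron. Of other contractile genes in the list, MYLK hosted 8 (strongest 156), and CALD1 and TPM1 hosted 1 each (111 and 31.9). Of 30 integrin and focal adhesion genes, 17 hosted one (56.7%, 39.2 to 72.6; 19.5 per Mb, 13.4 to 27.4). Strongest were peaks in ITGB5, an integrin beta chain (343, chr3:124774331-124774651), the adaptor gene BCAR1 (335, chr16:75245133-75245482), TLN1, which encodes the integrin activator talin 1 (248, chr9:35727919-35728266), and ITGA1 (179, chr5:52922456-52922716), the last with both motifs. The summits in ACTN4 and TLN1 hold 1 and 2 TEAD motifs.
ACTN4, chr19:38659665-38659785: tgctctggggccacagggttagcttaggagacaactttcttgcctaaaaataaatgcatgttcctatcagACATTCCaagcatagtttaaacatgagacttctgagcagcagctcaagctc
TLN1, chr9:35728011-35728211: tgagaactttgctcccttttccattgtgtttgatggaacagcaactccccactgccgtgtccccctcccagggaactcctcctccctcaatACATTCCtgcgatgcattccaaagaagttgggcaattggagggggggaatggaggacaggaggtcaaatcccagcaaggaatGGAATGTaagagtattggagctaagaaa

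Collagen and matrix genes were hosts in 37.9% and 37.8% of cases, and few of the collagen peaks held the TEAD motif. Of 29 collagen genes, 11 hosted one (37.9%, 22.7 to 56.0; 16.9 per Mb, 10.4 to 25.8). Among the 21 peaks in them, 1 held the TEAD motif and 7 the AP-1 motif, beside 23.5% and 26.4% of all 3888 peaks. Their median signal value was 64.6. The difference in motif content from the other peaks was not tested. The fibrillar collagen gene COL5A2 held the strongest (357, intron 6, chr2:189096805-189097171), followed by COL5A1 (192, chr9:134662145-134662465), COL4A1 of basement membranes (144, chr13:110247985-110248196) and COL15A1 (112, chr9:99030241-99030423). The single collagen peak with a TEAD motif lay in COL5A3, 71.1 in signal value. The fibrillar genes COL1A1 and COL1A2, which the study followed, hosted none, over 0.32 and 16.7 kb of eligible intron. COL3A1 hosted 1 peak, of 38.0, below the lower quartile of 45.6 of all 3888 peaks. Of 45 genes for matrix glycoproteins and matrix enzymes, 17 hosted one (37.8%, 25.1 to 52.4, and 21.2 per Mb, 14.9 to 29.2). Hosts included FN1, FBN1, LOXL1, LOXL2 and LOXL4, while LOX, LOXL3, POSTN, TNC, SPARC, ELN, THBS1, TIMP1 and MMP14 were among the genes without one. The strongest were in HSPG2, which encodes the proteoglycan perlecan (321, chr1:21931160-21931584), PLOD2, a collagen lysyl hydroxylase (272, chr3:146132020-146132382), the laminin gene LAMB1 (chr7:107995705-107996161) and VCAN, which encodes versican (216, chr5:83568198-83568499). The TEAD motif lies away from the summit in COL5A3 and close to it in HSPG2.
COL5A3, chr19:10008970-10009170: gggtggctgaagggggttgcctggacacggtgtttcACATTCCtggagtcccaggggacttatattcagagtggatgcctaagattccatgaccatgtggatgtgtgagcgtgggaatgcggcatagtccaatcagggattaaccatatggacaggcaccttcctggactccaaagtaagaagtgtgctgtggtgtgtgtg
HSPG2, chr1:21931335-21931455: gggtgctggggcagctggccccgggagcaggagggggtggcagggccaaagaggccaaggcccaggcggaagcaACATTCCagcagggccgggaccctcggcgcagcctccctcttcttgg

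Of 26 TGF-beta and SMAD genes, 11 hosted one (42.3%, 25.5 to 61.1, and 29.3 per Mb, 19.8 to 41.8). The TEAD motif was in 13 of their 30 peaks, beside 23.5% of all 3888, and this difference was not tested. SMAD3 alone held 11 of the 30. Hosts included SMAD3 (288, chr15:67080586-67080917), the ligand gene TGFB2, the co-receptor gene TGFBR3 (248, chr1:91900574-91900886), SMAD2, SMAD4, and the inhibitory SMAD6 (184, chr15:66748383-66748698) and SMAD7. Of 22 growth factor receptor genes, 9 hosted one (40.9%, 23.3 to 61.3; 24.2 per Mb, 14.8 to 37.4). Besides AXL, the strongest lay in the first intron of PDGFRB, the PDGF receptor of mesenchymal cells (251, chr5:150141907-150142221), in IGF1R (167, chr15:98727674-98727919) and in ROR2, a receptor of WNT5A (113, chr9:91777557-91777757). The summit in PDGFRB holds a TEAD motif.
PDGFRB, chr5:150141999-150142119: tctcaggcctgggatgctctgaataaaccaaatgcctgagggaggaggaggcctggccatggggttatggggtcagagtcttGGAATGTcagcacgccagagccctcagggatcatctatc

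The list of mesenchymal transcription factors lay close to the background. Of 32 such genes, 5 hosted one (15.6%, 6.86 to 31.8, and 7.90 per Mb, 3.95 to 14.1). None of their 11 peaks held the TEAD motif, beside 23.5% of all 3888 peaks, a difference over few peaks that was not tested. The hosts were NFIB (140, chr9:14320304-14320509), RUNX1 (113, chr21:34881534-34881745), ZEB2 (58.4), TCF4 (45.0) and TWIST1. Of 17 AP-1 family genes 0 hosted one, over 0.139 Mb of eligible intron, which allows up to 26.5 per Mb. Among lists of other cell types, 1 of 26 hepatocyte genes was a host, AHSG, a secreted liver glycoprotein (33.8, chr3:186616867-186617310), and 1 of 20 immune cell genes, PTPRC, the gene of the leukocyte antigen CD45 (252, chr1:198669100-198669423). Of 15 endothelial genes, 3 hosted one (interval 7.05% to 45.2%, and 13.4 per Mb, 5.37 to 27.5), above the background but with intervals that include it. The hosts were CDH5 (134, chr16:66382375-66382598), VWF (60.9, chr12:6116611-6117054) and FLT1 (57.7, chr13:28339373-28339816). A TEAD4 peak in an intron does not say that the gene is expressed, and expression was not measured in these samples. The summit in PTPRC, with its TEAD motif, and the strongest CDH5 peak with one, with an AP-1 motif in the same window, read as follows.
PTPRC, chr1:198669200-198669320: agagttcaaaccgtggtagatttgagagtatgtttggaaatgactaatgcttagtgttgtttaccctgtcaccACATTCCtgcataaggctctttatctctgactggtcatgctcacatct
CDH5, chr16:66382979-66383179: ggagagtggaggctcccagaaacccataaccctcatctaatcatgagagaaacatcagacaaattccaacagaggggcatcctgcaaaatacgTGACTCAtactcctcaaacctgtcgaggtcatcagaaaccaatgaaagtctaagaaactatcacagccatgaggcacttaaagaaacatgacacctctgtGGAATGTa

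All peaks of the list came from the authors' reproducibility analysis of replicates 1 and 3, the pair kept for its agreement. Their scores for reproducibility ran only from 830 to 1000. Of the 3888 peaks, 2911 (74.9%) had the highest score for reproducibility, and 128 (3.29%) had a q-value above 0.05, a share close to the 3.25% of deep intronic peaks and 3.02% of peaks within 1 kb of a TSS. A width of exactly 444 bp was shared by 2456 of them, so that widths were not compared.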

How the data were processed

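TEAD4 ChIP-seq of LX-2 cells was represented by a single deposited peak list on hg38. The authors mapped reads with Chromap and ran the ENCODE IDR pipeline on replicates 1 and 3. In the list deposited by the authors, the score is the scaled IDR of the replicates, the signal value is the peak caller's strength, the −log10 q-value is that of the caller, and the other column gives the offset of the summit. These meanings were read from the layout. The peak caller and the depth per sample are not given in the sources used here.

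Classes were assigned with GENCODE release 44. Each motif was sought on either strand up to 100 bp from the summit. Log2 signal values (linear) and motif presence (logistic) were modelled on all 21113 peaks with statsmodels 0.14.6 and standard errors clustered by 1 Mb block (by peak for flanks). P-values are two-sided Wald values with Benjamini-Hochberg adjustment over 3 signal contrasts, 33 motif contrasts, 11 flank contrasts or 5 relations within the set. Peaks near each other are not independent, so these values are approximate, and intervals of shares (Wilson) and densities (exact Poisson) cover counting error only. Symbols of 13 gene lists were matched to GENCODE and all were found. Named were the 10 strongest peaks, the 6 genes with the most, up to 4 genes per list, and the sequences shown as the strongest of each kind or list, while further hosts of a list were named after their values were seen. Sequences were planned at 60 bases to either side and widened to 100 where a counted motif lay outside. The members, lists and tests were chosen with earlier results of these data known. The code was tested on simulated data. Repeats were not annotated. The strongest peak with a TEAD motif among TGF-beta and SMAD genes is not reported here. Other files of the study were not analysed here.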

Additional observations from a re-analysis of the deposited data

How the results depend on the processing

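No paired analysis was possible because replicates 1 and 3 were combined into a single list, and no replicate could be left out. Of 278 values recomputed for 33 results under 16 alternatives, 253 kept their call or, without a test, stayed within 1.5 times (counts) or the counting interval (density), and none changed direction with a call. The wider AP-1 motif TGANTCA, and the alternatives for motifs other than TEAD and AP-1, were added after the data were seen. With 1 TSS per gene, there were 2138 peaks at 10.3 per Mb, the TEAD odds ratio was 1.25 against peaks within 1 kb and 0.861 per doubling of distance, that of AP-1 was 1.19 per doubling, and first introns had 0.911 times the signal value of later ones, all 4 now passing. The AP-1 trend with distance also passed with the motif TGANTCA (1.12), GC content as a covariate (1.10), TSSs of coding genes only (1.11), exons of coding transcripts only (1.10) and a window of 250 bp (1.12), and did not pass under the others. With GC content as a covariate the TEAD odds ratio against peaks within 1 kb passed (1.19). Over all alternatives this odds ratio ran from 0.975 to 1.25, so that its direction was not constant. With 1 peak per overlapping group the first intron result passed (0.945), the density was 8.12 per Mb, the CTCF core against peaks outside coding genes no longer passed (0.687) and the signal ratio of peaks with both motifs to neither fell from 1.52 to 1.29. With the highest score only, the first intron ratio was 0.992. The signal value against peaks within 1 kb no longer passed with limits of 2.5 and 10 kb (1.01 times) or the highest score only (1.02 times, density 6.62). Limits of 1 and 5 kb gave 2201 peaks in 1637 genes, and peaks above the median signal value 1907 in 1509 genes at 4.34 per Mb. Fewer peaks enter by construction, and the cause was not tested otherwise. Without values per replicate or depth, the error between cultures is unknown.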
